A study of Mus musculus with 8 samples.

Results

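The genes described here lie beside Stk39 on mouse chromosome 2, the locus that was disrupted in the SPAK knockout. They are the 128 genes, of 19938 measured, whose midpoint in the GRCm38.p6 gene annotation lies within 10 Mb of the midpoint of Stk39, without Stk39 itself. The rule takes genes by position and uses no measured value, but it was chosen with earlier results of these data known. Its exclusion of 5 gene families removed 0 genes from the window. On the lower-coordinate side of Stk39 there were 42 genes and on the other 86. By annotation 119 encode proteins, 7 are long non-coding RNAs, 1 is an antisense RNA and 1 a microRNA gene. Of the 123 protein-coding genes annotated in the window, 4 (Rapgef4, Gm50595, Hnrnpa3 and Ttc30a2) had no probe set with a single gene symbol and were not measured here.

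Renal cortex RNA came from 4 wild-type mice (WT) and 4 littermates without SPAK (SPAK KO), the kinase encoded by Stk39. All were males at 10 weeks of age, labelled C57Bl6J, on a diet of 0.32% NaCl and 1% KCl, and each sample was hybridised to its own 1-colour array. The labels do not give the part of Stk39 that was disrupted, the cells in which this was done or the number of backcrosses. The study asked which genes work together against renal salt loss when SPAK is missing.

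SPAK is a serine/threonine kinase that WNK kinases activate and that phosphorylates cation-chloride cotransporters, including the thiazide target NCC, which reabsorbs salt in the distal convoluted tubule. Genes next to a disrupted gene are inherited with it, so in crosses that begin with modified stem cells of another strain the knockout animals can carry that strain's version of the surrounding DNA. Neighbours on a chromosome can also share regulatory DNA. For these reasons the expression of flanking genes is often examined beside that of the disrupted gene. DNA sequence was not measured in these animals, and any part of strain DNA in the values below was not tested.

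The promoters of Stk39 and of the 3 flanking genes that passed the test are shown because those are the genes on which the comparison turns. Each sequence holds the 250 bases before the annotated start of transcription, read 5′ to 3′ on the gene's strand, from RefSeq on GRCm38.p6. For Itgb6, with 2 annotated starts, the outermost is shown. Capitals mark 3 motifs on either strand: the GC box GGGCGG, the CCAAT box CCAAT and the TATA box TATAAA.
Stk39 (chr2:68471982-68472231, minus strand): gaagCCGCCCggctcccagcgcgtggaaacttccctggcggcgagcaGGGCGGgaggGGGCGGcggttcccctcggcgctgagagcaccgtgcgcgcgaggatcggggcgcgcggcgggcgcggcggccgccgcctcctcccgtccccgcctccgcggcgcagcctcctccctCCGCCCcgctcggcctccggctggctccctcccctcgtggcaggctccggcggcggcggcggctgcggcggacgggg
Agps (chr2:75831927-75832176, plus strand): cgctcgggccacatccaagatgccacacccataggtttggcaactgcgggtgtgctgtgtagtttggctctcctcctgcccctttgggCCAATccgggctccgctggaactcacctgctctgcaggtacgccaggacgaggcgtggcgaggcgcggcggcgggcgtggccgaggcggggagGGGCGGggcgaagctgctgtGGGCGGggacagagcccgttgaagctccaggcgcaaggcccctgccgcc
Gpr155 (chr2:73386481-73386730, minus strand): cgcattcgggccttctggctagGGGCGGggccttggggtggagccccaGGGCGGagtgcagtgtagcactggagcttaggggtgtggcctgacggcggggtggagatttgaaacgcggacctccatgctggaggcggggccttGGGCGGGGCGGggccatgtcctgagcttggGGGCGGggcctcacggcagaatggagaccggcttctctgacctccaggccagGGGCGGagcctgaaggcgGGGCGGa
Itgb6 (chr2:60722604-60722853, minus strand): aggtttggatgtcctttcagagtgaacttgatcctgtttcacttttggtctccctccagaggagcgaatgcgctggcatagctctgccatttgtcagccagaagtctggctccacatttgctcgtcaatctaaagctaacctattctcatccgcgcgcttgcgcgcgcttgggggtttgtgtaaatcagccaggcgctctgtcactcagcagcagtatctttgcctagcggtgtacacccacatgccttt

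The Stk39, Agps and Gpr155 sequences hold 4, 2 and 7 GC boxes, with a pair in Gpr155 that overlaps by 1 base, and Agps has 1 CCAAT box. None of the 3 motifs occurs in the Itgb6 window, and no TATA box occurs in any of these 4. Their G and C content is 82.4%, 70%, 70.4% and 52% in the order printed. Of 120 flanking genes with a promoter in the table, 48.3% held a GC box, 35.8% a CCAAT box and 13.3% a TATA box. Among all 32851 promoter windows of the same length the shares were 32.7%, 33.8% and 12.4%. These 32851 windows are a wider set that counts every annotated start, where each flanking gene gave only its outermost. They are not limited to measured genes and had a median of 6 CpG dinucleotides against 14 in the flanking genes' windows. The shares therefore do not bear on position beside Stk39. A match is a run of letters and not a measured binding site.

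Expression was given as log2 values after RMA, a method that subtracts background, scales arrays to each other and combines the probes of a probe set. A difference of 1 on this scale is a doubling. For each gene the probe set with the highest mean was used, and each difference is the SPAK KO mean less the WT mean, with limma's moderated standard error (SE) from all 8 arrays. Genes with a Benjamini-Hochberg adjusted p under 0.05, counted over all 19938 genes, are termed called. Signals carry no detection call, and levels of different probe sets are not comparable because probes differ in brightness.

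The arrays were not equally distinct. Of the 6297 genes whose mean exceeded 8, a gap over 0.4 was found for 1 to 10 in each pair of SPAK KO arrays and for 3 between WT 2 and WT 3, but for 119 to 228 in the other WT pairs. WT means ± SD therefore count WT 2 and WT 3 as 1 sample (n = 3), SPAK KO is given as single arrays or a range, and p-values over 8 arrays rest on a spread that may be partly technical. Markers listed for the proximal tubule, the main cell type of cortex, averaged 12.22 to 12.28 on WT and 12.33 to 12.35 on SPAK KO arrays, and 1 of 6 (Aqp1) was higher. The others were uncalled and mixed in sign. Slc5a2 (−0.17 ± 0.07) and Slc34a1 (−0.0013 ± 0.04) lay below 0. Slc13a3 (0.25 ± 0.06), Slc5a12 (0.07 ± 0.05) and Cubn (0.04 ± 0.05) lay above 0. For brain, skeletal muscle and adrenal gland 0 markers were called, and without detection calls their presence or absence cannot be stated. Of 3 distal convoluted tubule markers 2 were lower in SPAK KO (list average 9.49 to 9.60 on WT arrays and 8.82 to 8.90 on SPAK KO arrays). Of 3 intercalated cell markers 2, Atp6v1g3 and Slc26a4, were higher (list average 8.98 to 9.24 in WT and 9.45 to 9.54 in SPAK KO). The uncalled Slc4a1 of that list had the opposite sign (−0.15 ± 0.11). Cldn16 of the thick ascending limb was higher (list average 10.94 to 10.99 in WT, 11.16 to 11.22 in SPAK KO). Aqp4, 1 of 2 inner medulla markers, was lower (5.48 to 5.75 in WT, 5.09 to 5.31 in SPAK KO). So was Cd3e, 1 of 3 immune cell markers (6.59 to 6.83 in WT, 6.32 to 6.50 in SPAK KO). Uncalled in that list were Cd79a (−0.11 ± 0.07) and, with the opposite sign, Ptprc (0.03 ± 0.08). The inner medulla list averaged 5.47 to 5.69 in WT and 5.22 to 5.32 in SPAK KO. The immune cell list averaged 5.91 to 6.09 in WT and 5.78 to 5.89 in SPAK KO. Aqp2, 1 of 3 principal cell markers, was lower, while the uncalled Aqp3 (0.23 ± 0.06) and Scnn1g (0.05 ± 0.07) had the opposite sign. The principal cell list averages overlapped (9.85 to 10.00 in WT, 9.93 to 9.97 in SPAK KO). Retn, 1 of 3 fat markers, was higher (list average 5.24 to 5.53 in WT, 5.52 to 5.71 in SPAK KO). In whole cortex, fewer cells of a type and less RNA per cell cannot be told apart. The part of these cell types in the differences below was not tested.

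Stk39 itself read 8.36, 8.51, 8.60 and 8.11 in WT 1 to 4, against 7.21, 6.98, 6.79 and 7.10 in SPAK KO 1 to 4. The drop of −1.38 ± 0.11 (SE; limma adjusted p = 5.8e-04) matched the labels. No flanking gene differed by as much.

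Of the 128 flanking genes 3 were lower in SPAK KO, 0 were higher and 125 did not pass. The lower genes were Agps, Gpr155 and Itgb6. The called share of 2.34% stood beside a background of 2.08% over all genes measured. By direction, 1.39% of all genes were called higher and 0.682% lower. The background depended on single arrays. Without 1 array it was 0.782% (SPAK KO 1), 0.988% (SPAK KO 2), 0.943% (SPAK KO 3), 0.823% (SPAK KO 4), 2.16% (WT 1), 0.913% (WT 2), 1.26% (WT 3) or 3.13% (WT 4). The flanking share in these fits was 2.34%, except for 3.12% without WT 1 and 3.91% without SPAK KO 2 or WT 4. It was 2.34% beside 0.873% with the replicate number as a block. The nearness of both shares therefore holds for the fit of all 8 arrays and not for most of these. All 3 calls lay more than 5 Mb from Stk39, Gpr155 only just at 5.02 Mb. Itgb6 was on one side and Gpr155 and Agps on the other.

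Agps encodes alkylglycerone phosphate synthase, the peroxisomal enzyme that makes the ether bond of plasmalogens and other ether lipids. It read 10.93, 10.81, 10.94 and 10.78 in WT 1 to 4, against 10.24, 10.29, 10.30 and 10.34 in SPAK KO 1 to 4. The highest SPAK KO array lay well below the lowest WT array. The difference was −0.57 ± 0.05 (SE), or 1.48-fold lower, with limma adjusted p = 0.0013 and a WT mean of 10.86 ± 0.08 (SD, n = 3). The gene sits 7.54 Mb from Stk39 and is 70th in order on its side.

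Gpr155 encodes a membrane protein of lysosomes that has been linked to the sensing of cholesterol. Its values were 8.42, 8.46, 8.48 and 8.38 across WT 1 to 4 and 8.07, 8.09, 8.09 and 8.03 across SPAK KO 1 to 4, again with no overlap. The difference of −0.37 ± 0.05 corresponded to 1.29-fold lower (adjusted p = 0.0046), 5.02 Mb from Stk39.

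Itgb6 encodes the β6 subunit of integrin αvβ6, an epithelial receptor that activates latent TGF-β. It read 10.71, 10.66, 10.65 and 10.60 on the WT arrays against 10.29, 10.31, 10.26 and 10.26 on the SPAK KO arrays. All SPAK KO values fell below all WT values, by −0.37 ± 0.05 on average or 1.30-fold (adjusted p = 0.0045), at a distance of 7.68 Mb. Each of these 3 genes has 1 single-symbol probe set, so no second probe set checks the value.

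**Figure D1:**
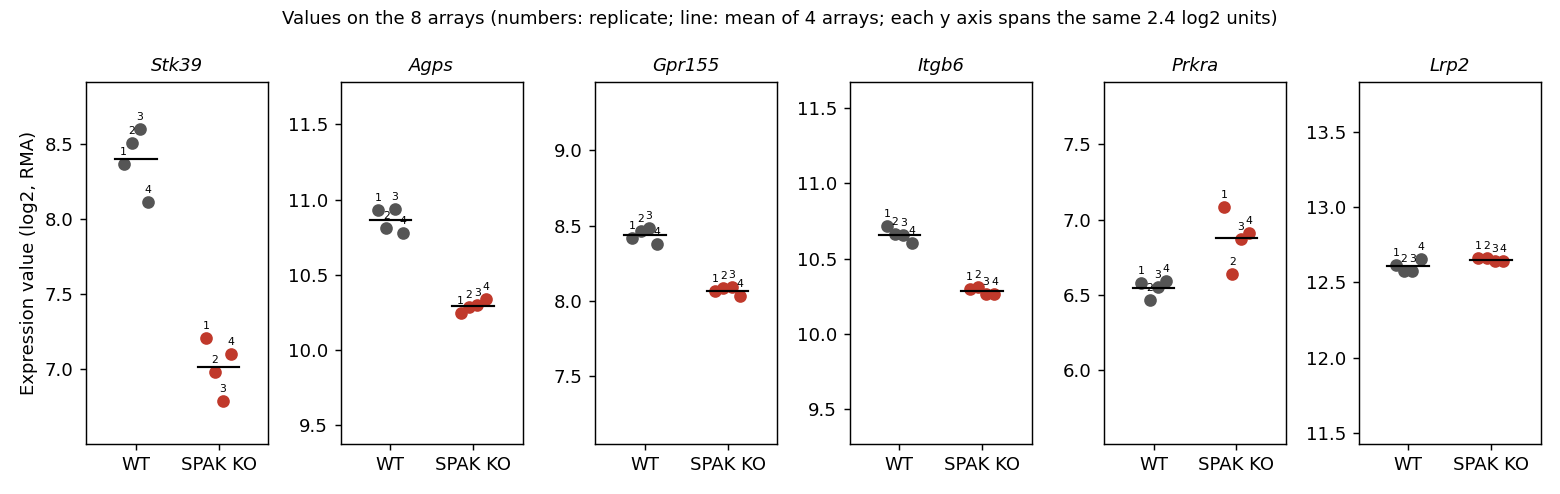
Log2 RMA value (y axis) of Stk39 and 5 flanking genes on the 4 WT arrays (grey) and 4 SPAK KO arrays (red), numbered by replicate, with the mean of 4 arrays as a line. Groups are apart for Stk39, Agps, Gpr155, Itgb6 and Prkra, while for Lrp2 all 8 arrays lie between 12.57 and 12.66.

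The 3 calls passed in 18 of 19 alternative fits each, including every fit without 1 array. They ended where arrays that agree were counted once, which leaves 1 SPAK KO sample and tests no genotype effect. There the differences were −0.57, −0.35 and −0.37 for Agps, Gpr155 and Itgb6.

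Calls by distance were as follows. Within 2.5 Mb, 0 of 35 genes were called, from 2.5 to 5 Mb 0 of 27, and from 5 to 10 Mb 3 of 66 (4.55%), beside 2.08% of all genes. Gpr155, at 5.02 Mb, lay just past the 5 Mb limit. The split of these 3 calls by range was not tested. At an unadjusted limma p under 0.05, 3 genes were higher and 7 lower within 2.5 Mb, 4 and 0 from 2.5 to 5 Mb, and 10 and 8 from 5 to 10 Mb. In percent of the genes in each range, both directions together, these were 28.6%, 14.8% and 27.3%, beside 19.1% of all genes (9% higher and 10.1% lower). Of the genes on chromosome 2 beyond 10 Mb, 25 of 1608 were called, 18 higher and 7 lower (1.55%). On the lower-coordinate side the inner 2 ranges held 10 and 6 genes, too few to read a trend from. The 62 genes within 5 Mb had differences between −0.25 and 0.24, so their mean levels in the 2 genotypes were within 1.19-fold of each other. In 2 of the 8 fits without 1 array, 1 of these genes was called, Galnt3 without WT 1 and the dim 4932414N04Rik (mean 3.49) without SPAK KO 2.

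**Figure D2:**
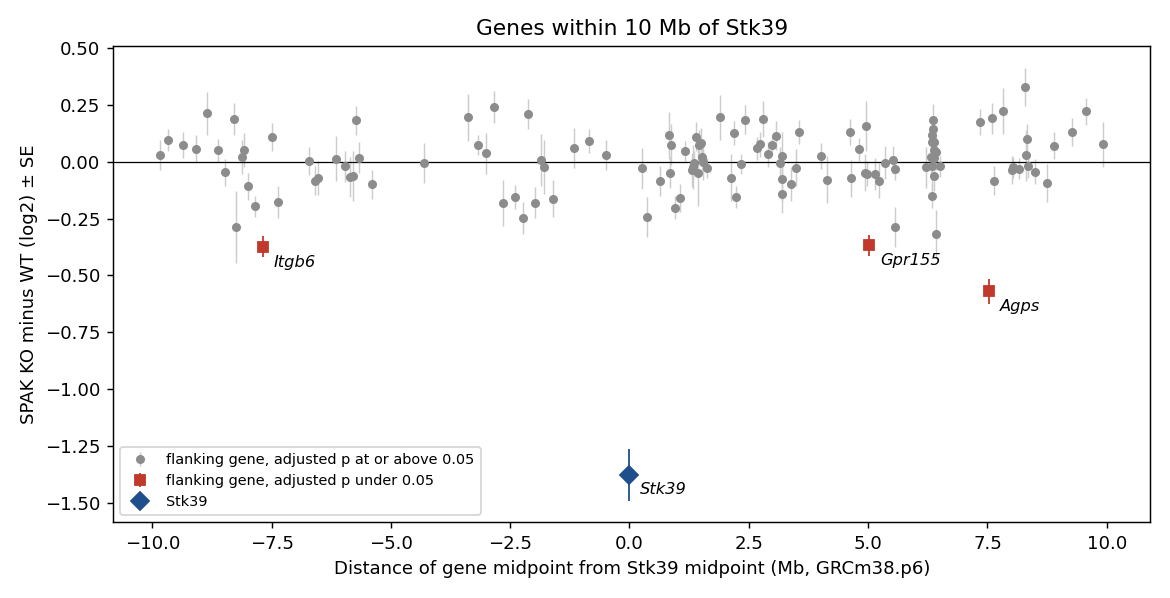
Difference SPAK KO minus WT (y axis, log2, bars are the SE) of each flanking gene against the distance of its midpoint from that of Stk39 (x axis, Mb; negative is the lower-coordinate side). Stk39 is at −1.38 (blue), the 3 called genes are red, and all genes within 5 Mb lie between −0.25 and 0.24.

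For the 5 nearest genes on each side the groups overlapped. On the lower-coordinate side, B3galt1, a galactosyltransferase of glycan synthesis 0.497 Mb away, read 4.58 to 4.73 in WT and 4.57 to 4.84 on SPAK KO arrays and differed by 0.03 ± 0.07. Xirp2, an actin-binding protein of striated muscle, differed by 0.09 ± 0.05 and the unnamed locus Gm1322 by 0.06 ± 0.09. Next came Scn7a (−0.16 ± 0.08) and Scn9a (−0.02 ± 0.12), both sodium channel genes. The groups overlapped for all 5.

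On the other side, the first 2 genes were the RIKEN loci 4933409G03Rik, 0.258 Mb away (−0.03 ± 0.09), and 4932414N04Rik, 0.361 Mb away. The latter read 3.61, 3.65, 3.64 and 3.54 in WT and 3.18, 3.64, 3.37 and 3.29 in SPAK KO, a difference of −0.24 ± 0.09 (adjusted p = 0.176). SPAK KO 2 lay among the WT values, and without that array the adjusted p was 0.0472 with a difference of −0.33. With a mean of 3.49 this probe set was dim, and the fit without genes of a mean under 6 left it out. Cers6, a ceramide synthase, gave −0.09 ± 0.07, Nostrin, which binds endothelial nitric oxide synthase, gave 0.12 ± 0.10, and Spc25, a kinetochore protein, gave −0.05 ± 0.07. None of these 10 neighbours passed.

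As a whole the flanking genes were centred near 0. Their median difference was 0.0047, beside −0.01 over all genes, with 65 differences above 0 and 63 below. The middle 80% lay between −0.17 and 0.18, and over all genes between −0.17 and 0.14. A size above 0.25 was reached by 7 of 128 (5.47%), beside 6.51% of all genes. At an unadjusted p under 0.05 there were 17 higher and 15 lower members, 25% in all beside 19.1% of all genes (9% higher and 10.1% lower). Groups did not overlap for 12 genes that were higher and 11 that were lower, 17.97% beside 12.6% of all genes (6.9% higher and 5.71% lower). These shares are descriptions, and the difference from the background was not tested.

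**Figure D3:**
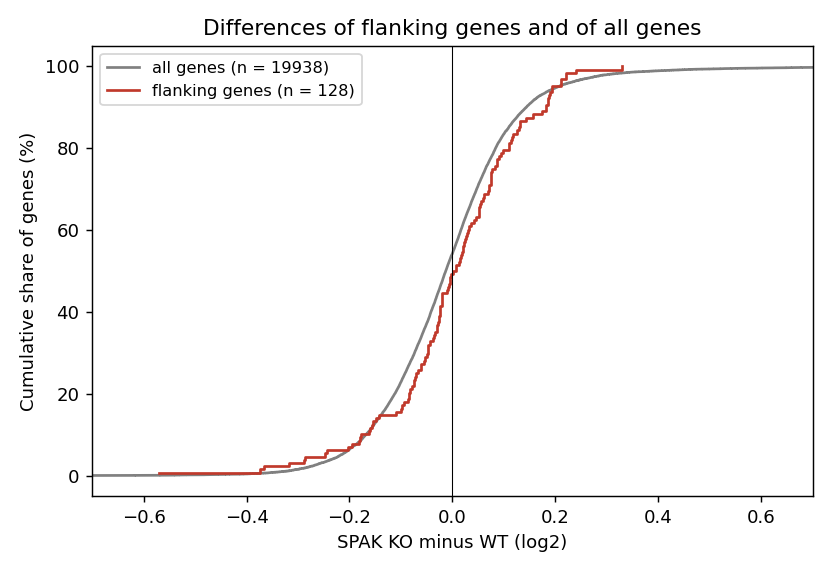
Cumulative share of genes (y axis, %) by difference SPAK KO minus WT (x axis, log2) for the 128 flanking genes (red) and all 19938 genes (grey). The curves run close together, with medians of 0.0047 and −0.01, and the red curve starts with Agps at −0.57.

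**Figure D4:**
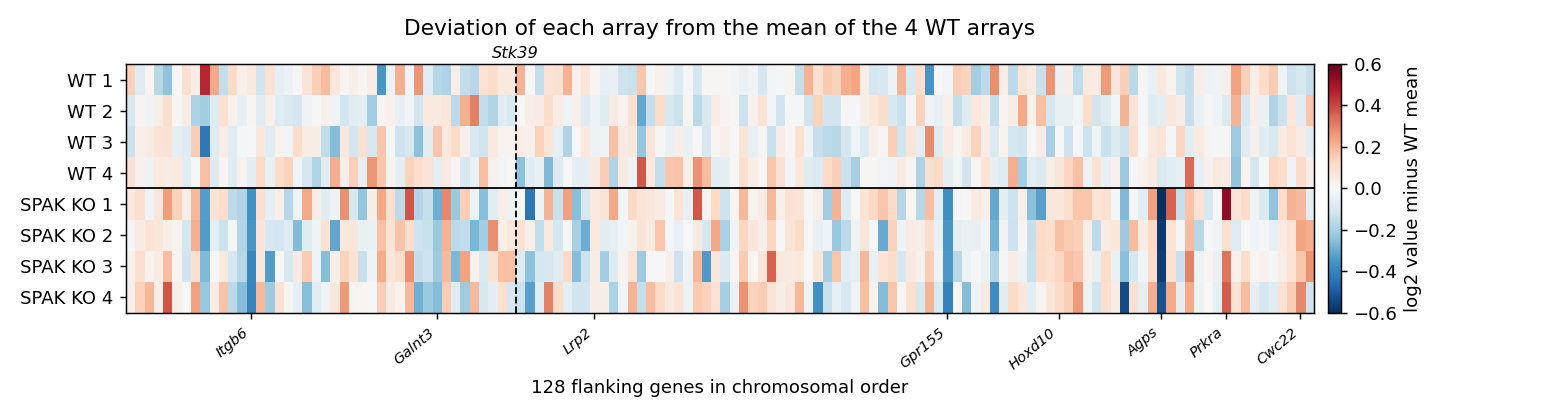
Deviation of each array (rows) from the mean of the 4 WT arrays (colour, log2) for the 128 flanking genes in chromosomal order (columns), with Stk39 at the dashed line. Only scattered columns differ on all 4 SPAK KO arrays, the darkest being Agps at −0.57.

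Transporters and endocytic receptors included genes with clear roles in the proximal tubule, and 0 of 7 were called. Lrp2, or megalin, the apical receptor that retrieves filtered proteins and vitamin carriers, read 12.62, 12.58, 12.57 and 12.66 in WT and 12.66, 12.66, 12.64 and 12.64 in SPAK KO. The groups overlapped, with a difference of 0.05 ± 0.04, 1.16 Mb from Stk39. Slc25a12, the mitochondrial aspartate/glutamate carrier, read 10.83 to 10.86 in WT and 10.90 to 10.93 on SPAK KO arrays, 0.07 ± 0.04, too small to pass although the groups were apart. Abcb11, the bile salt export pump of liver, read 4.09 to 4.17 against 3.89 to 4.03 (−0.20 ± 0.05, adjusted p = 0.0806), the smallest adjusted p of any gene within 5 Mb. Cybrd1, a ferric reductase, and Kcnh7, a potassium channel, gave 0.19 ± 0.08 and −0.10 ± 0.06.

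Of 9 genes for peptidases, adhesion and immune receptors 1 was lower, Itgb6. Its neighbour Pla2r1 encodes the phospholipase A2 receptor, which in humans is expressed by podocytes and is an autoantigen in membranous nephropathy. Pla2r1 read 6.53, 6.45, 6.49 and 6.52 in WT and 6.31, 6.32, 6.33 and 6.24 in SPAK KO. The groups were apart and the difference was −0.20 ± 0.05, with an adjusted p of 0.0651. It passed where genes with a mean under 6 were left out (adjusted p = 0.0238). Ifih1, the RNA sensor MDA5, read 7.57 to 7.74 and 7.74 to 7.95 (0.18 ± 0.06, adjusted p = 0.165), and Ly75, an endocytic receptor of dendritic cells, gave −0.11 ± 0.06. The group's median was −0.03.

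Of 11 metabolic and Golgi genes 1 was lower, Agps. Galnt3, which starts O-glycan chains and protects the phosphate hormone FGF23 from cleavage, read 9.27, 9.50, 9.61 and 9.39 in WT and 9.15, 9.22, 9.23 and 9.18 in SPAK KO. Its difference of −0.25 ± 0.07 did not pass (adjusted p = 0.108), but it did without WT 1 (−0.30, adjusted p = 0.0403), the lowest of the WT arrays. Gad1, which makes GABA from glutamate, gave −0.15 ± 0.05 and Dhrs9, a retinol dehydrogenase, −0.16 ± 0.06, both with groups apart and adjusted p of 0.134 and 0.209. The group's median was −0.01.

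Kinases and regulators of small GTPases had 0 of 7 genes called and the highest median of the role groups, 0.13. Prkra, the protein activator of the RNA-dependent kinase PKR and a partner of Dicer, had the largest positive difference of all flanking genes. It read 6.58, 6.46, 6.55 and 6.59 in WT and 7.08, 6.64, 6.87 and 6.91 in SPAK KO. SPAK KO 2 lay only just above the WT values. The difference was 0.33 ± 0.08, or 1.26-fold, with an adjusted p of 0.0818, and without SPAK KO 2 it was 0.41 (adjusted p = 0.0304). Tlk1, a chromatin-assembly kinase, gave 0.18 ± 0.06, Pdk1, which inhibits pyruvate dehydrogenase, 0.13 ± 0.05, and Grb14, an adaptor that restrains insulin signalling, 0.19 ± 0.10 (0.08 without WT 1). Among these 3 the groups were apart for Tlk1 and Pdk1.

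Transcription factors had 0 of 10 genes called. Nfe2l2, or NRF2, the regulator of the antioxidant response, read 10.34 to 10.47 in WT and 10.52 to 10.66 on SPAK KO arrays, 0.17 ± 0.06 (adjusted p = 0.137). Csrnp3 gave −0.16 ± 0.05, Baz2b, a bromodomain protein, 0.19 ± 0.07 and Sp3, which binds GC boxes, 0.13 ± 0.06. A second, dimmer probe set of Sp3 had the opposite sign, −0.12.

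Hoxd genes pattern the body axis and limbs, and some of them stay active in adult kidney. The Hoxd cluster also had 0 of 10 called, with Evx2 counted in. Hoxd8, Hoxd9 and Hoxd10 lie side by side and differed by 0.18 ± 0.07, 0.14 ± 0.06 and 0.12 ± 0.05, with adjusted p of 0.195, 0.237 and 0.230. Hoxd13, next to Evx2, went the opposite way at −0.15 ± 0.05 (adjusted p = 0.178). Over the cluster 7 differences were above 0 and 3 below, and the median was 0.03. The probe set of Mir10b, between Hoxd4 and Hoxd3, gave 0.09 ± 0.08. It was designed for the gene and does not show the mature microRNA.

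The 5 genes of the voltage-gated sodium channel family, most of which carry action potentials in nerve and muscle, had 0 called. Scn3a read 3.57, 3.57, 3.49 and 3.72 in WT and 3.96, 3.69, 3.86 and 3.78 in SPAK KO (0.24 ± 0.07, adjusted p = 0.117). The other four, Scn1a, Scn2a, Scn7a and Scn9a, gave −0.18 ± 0.07, −0.18 ± 0.10, −0.16 ± 0.08 and −0.02 ± 0.12. The groups overlapped for all 5. Scn2a has 14 probe sets, and the dimmer 13 gave differences between −0.21 and 0.11. With each array centred on its median, Scn3a passed (0.30, adjusted p = 0.0468). Its probe set was dim (mean 3.70), and the fit without genes of a mean under 6 left it out.

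Genes of the cilium and cytoskeleton had 0 of 6 called and a median of 0.05. Ttc21b, a ciliary transport protein whose human variants cause kidney disease, read 7.18, 7.43, 7.42 and 7.42 in WT and 7.65, 7.57, 7.55 and 7.52 in SPAK KO, 0.21 ± 0.07 (adjusted p = 0.135). Myo3b, a myosin, gave 0.19 ± 0.10, Tanc1, a scaffold protein, 0.05 ± 0.05, and Pkp4, a junctional plakophilin, 0.06 ± 0.06.

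For RNA, ribosome and protein turnover 0 of 12 were called, with a median of 0.04. Cwc22, a splicing factor, read 7.28, 7.31, 7.43 and 7.49 in WT and 7.57, 7.61, 7.55 and 7.67 in SPAK KO. The difference was 0.22 ± 0.06 (adjusted p = 0.0935), and without WT 4 it was 0.26 (adjusted p = 0.0487). Of the 8 probe sets of Cwc22, 6 others repeat the printed value and 1 dimmer gave 0.08, so copies of the gene cannot be told apart here. Rbms1, an RNA-binding protein, Ppig, a splicing-associated prolyl isomerase, and Cir1, a corepressor, gave 0.11 ± 0.06, 0.11 ± 0.07 and 0.16 ± 0.11. Without WT 1 the value of Cir1 was 0.04.

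The smallest lists also had 0 genes called. Of the 3 genes listed for cell division, Spc25 is given above, Cdca7, a cell cycle gene, gave −0.08 ± 0.10, and Sestd1, better known as a lipid-binding protein, gave 0.07 ± 0.06. The 4 muscle genes Xirp2, Chrna1 (−0.08 ± 0.08), Ttn (−0.04 ± 0.06) and Klhl41 (−0.02 ± 0.10) had a median of −0.03. The sign of Klhl41, Ttn and Scn9a turned positive with centring, quantile normalization or cyclic loess.

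**Figure D5:**
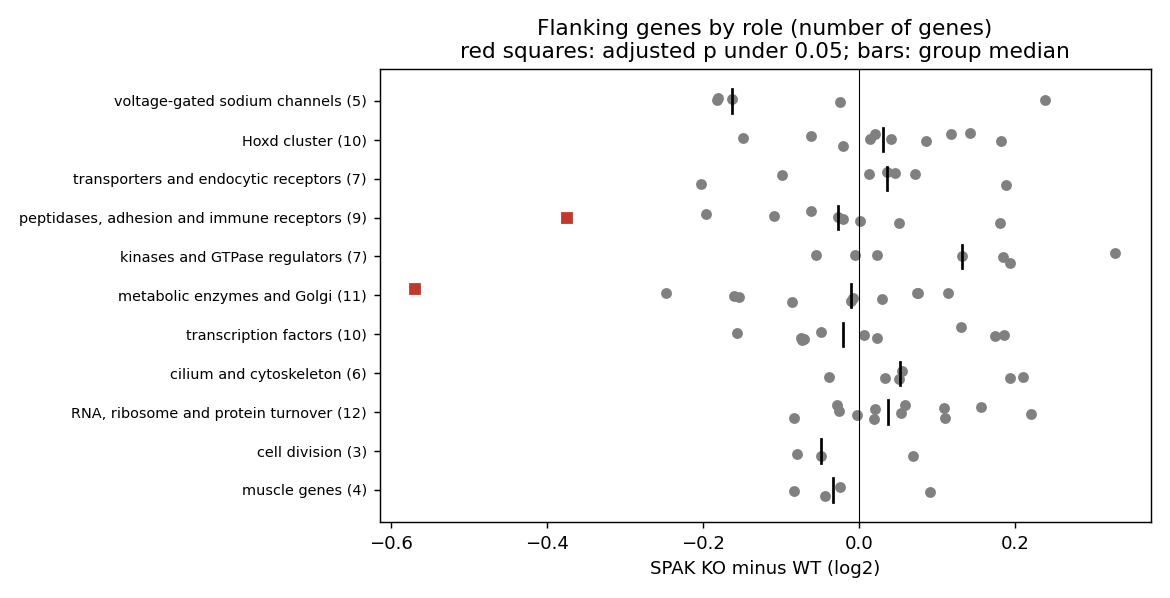
Difference SPAK KO minus WT (x axis, log2) of the 84 flanking genes that belong to a role group (rows), with group medians as bars and called genes as red squares. The 2 called genes shown, Itgb6 and Agps, lie below the other members of their groups, and Prkra at 0.33 lies highest.

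Outside the role groups were 44 genes, of which 1, Gpr155, was called. Gm10822, a non-coding RNA, read 5.87 to 6.29 in WT and 5.64 to 5.83 on SPAK KO arrays (−0.29 ± 0.09, adjusted p = 0.129). Plekha3, which binds Golgi phosphoinositides, and Atp5g3, a subunit of the mitochondrial ATP synthase, differed by −0.02 ± 0.05 and −0.03 ± 0.05, and both turned positive with centring.

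The genes at the edges of the window were not called on either side of the limit. Acvr1, a BMP receptor 9.83 Mb away and the last gene inside on the lower-coordinate side, gave 0.03 ± 0.07, and Acvr1c, the first outside at 10.03 Mb, gave −0.03 ± 0.07. On the other side Gm14461 at 9.93 Mb gave 0.08 ± 0.10 and Ube2e3, a ubiquitin-conjugating enzyme gene outside at 10.6 Mb, gave 0.12 ± 0.08.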

How the data were processed

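The deposited table held log2 values of 35556 probe sets on 8 arrays, which per the submitters' processing notes the authors derived by RMA with the Affymetrix Expression Console software. No source used here gives versions, genome build or filters. The number of samples, not of arrays, limits the precision. In the platform annotation 21789 probe sets carry 1 symbol, 1621 carry several and 12146 have no symbol. Single-symbol probe sets were kept, and the brightest stood for its gene. Of 19938 genes, 19919 had a place in the RefSeq table of GRCm38.p6, used for positions relative to Stk39.

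The lmFit and eBayes functions of limma 3.58.1 (R 4.3.3) were run on all genes, genotype being the only term, and p-values were adjusted over all genes. The script was tested on simulated data. Alternatives changed scaling, variance model (with statmod 1.5.0), filters, probe sets, samples, the replicate block and the window. The named genes were those called, the 5 nearest on each side, the 5 with the brightest probe sets, the 5 uncalled with the smallest p in each direction, the genes at the window's edges, and up to 4 per role group by smallest p. The members, groups and markers were chosen with earlier results of these data known. Genes named beyond the rule were Mir10b, Pde1a and Pde11a, chosen after their values were seen.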

Additional observations from a re-analysis of the deposited data

Results flagged for a closer look

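For 7 genes named in the text, 1 array stood apart from the other 3 of its group by Dixon's ratio of gap to range. For 4 independent arrays chance gives about 1 in 20 groups, a rate that does not apply here because WT 2 and WT 3, and the SPAK KO arrays, agree so closely. WT 1 was low for Pkp4 (11.30 against 11.51 to 11.55, ratio 0.831) and Ttc21b (7.18 against 7.42 to 7.43, ratio 0.929). WT 4 was low for Nostrin (6.17 against 6.50 to 6.54, ratio 0.902) and Plekha3 (10.79 against 10.92 to 10.93, ratio 0.922), and high for Pde11a (6.14 against 5.66 to 5.74, ratio 0.844). SPAK KO 4 was low for Chrna1 (4.41 against 4.63 to 4.68, ratio 0.843) and Csrnp3 (6.24 against 6.32 to 6.33, ratio 0.904). Over all 128 flanking genes such an array was found in 10 WT groups (7.81%), WT 1 in 6 and WT 4 in 4, and in 3 SPAK KO groups (2.34%), each time SPAK KO 4. None of the 3 called genes was among them.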

How the results depend on the processing

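Agps, Gpr155 and Itgb6 were lower in every fit of 8 or 7 arrays, with centring, quantile normalization, cyclic loess, trend and robust variance, filters, averaged probe sets, WT 2 and WT 3 averaged, or 1 array left out. With agreeing arrays counted once, 0 were lower, Stk39 differed by −1.32 without passing, and 4 members had an unadjusted p under 0.05 (limma). That fit called 0 of all genes, with 618 at an unadjusted p under 0.05. Within 5 Mb 0 of 62 genes were called. Within 20 Mb 4 of 333 were called (1.2%), 1 of them higher (Pde1a), beside 2.08% of all genes.

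Higher genes numbered 3 with arrays centred on their median (Cwc22, Prkra, Scn3a), 1 with trend and robust variance (Prkra) and 2 with dim genes left out by mean or rank (Cwc22, Prkra). Leaving out 1 array gave 0 to 2 higher genes (Prkra without SPAK KO 2, Cwc22 and Pde11a without WT 4) and 3 to 4 lower genes. The lower genes numbered 4 with trend and robust variance (Galnt3 added) and with either filter (Pla2r1 added). Called in either direction were 3.91% of flanking and 3.85% of all genes with trend and robust variance, 7.5% of 80 and 5.53% of all with the filter by mean, 7.59% of 79 and 5.57% by rank, and 4.69% and 3.82% with centring. Centring on array medians raised the median of all genes by 0.06 and changed the calls over all genes from 278 higher and 136 lower to 673 and 88, or from 67.1% to 88.4% higher. Centring on the median of the named genes, an alternative chosen after seeing the data, gave 283 and 132. The flanking median was 0.0633 with the first centring, 0.0219 and 0.0209 with the filters by mean and rank, and −0.0074 to 0.0162 with 1 array left out.

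Signs turned for differences near 0. With centring, 4933409G03Rik (0.0298), Atp5g3 (0.0242), Klhl41 (0.0347), Plekha3 (0.0381), Scn9a (0.0349), Spc25 (0.0108) and Ttn (0.0153) became positive. Quantile normalization gave 0.0235 for 4933409G03Rik, −0.0091 for Acvr1, 0.0488 for Klhl41, 0.0485 for Scn9a and 0.0331 for Ttn. Cyclic loess gave 0.0254 for 4933409G03Rik, 0.0410 for Klhl41, 0.0356 for Scn9a and 0.0206 for Ttn. The mean of all probe sets gave 0.0102 for Scn9a. With WT 2 and WT 3 averaged, or agreeing arrays counted once, Acvr1 gave −0.0093, Klhl41 0.0134 and Scn9a 0.0112. With 1 array left out, ranges crossed 0 for 4933409G03Rik (−0.11 to 0.0399), Acvr1 (−0.0148 to 0.0751), B3galt1 (−0.0186 to 0.0724), Gm1322 (−0.0101 to 0.105), Klhl41 (−0.11 to 0.0341), Pkp4 (−0.00069 to 0.0808) and Scn9a (−0.0968 to 0.0774). The cause was not tested.

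The replicate block on the numbers in the sample titles kept 3 lower and 0 higher genes (Agps adjusted p = 0.0164, Gpr155 and Itgb6 0.0286; limma), while calls over all genes fell to 129 higher and 45 lower. Deviations of same-numbered arrays correlated at −0.05, 0.08, −0.13 and 0.13, and 2 of 4 WT arrays correlated best with their own number. Whether the numbers mark pairs of animals cannot be told from these values.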
